A study of Mus musculus with 6 samples.

Results

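Keratinocytes, the epithelial cells of the epidermis, hold a set of danger signals, called alarmins, and of antimicrobial proteins. The 10 genes described here were chosen by name from this set: the peptidoglycan recognition proteins Pglyrp3 and Pglyrp4, the interleukin-1 family members Il1a, Il1b, Il1rn, Il18 and Il33, the cytokine Tslp, and the β-defensins Defb1 and Defb6. They are 10 of 21370 gene symbols that could be matched to the probes of the array through their accession numbers, and each was read by 1 probe.

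The transcripts were measured in mouse epidermis at embryonic day 16 on 6 Agilent arrays. On every array, knockout RNA labelled with one dye competed with RNA of wild-type littermates labelled with the other of the 2 dyes. The knockouts lacked Sox4 (Sox4 cKO), Sox11 (Sox11 cKO) or both genes (dcKO), which encode related transcription factors of the SOXC group, and each genotype had 2 arrays with the dyes swapped between them. The labels give the strain of both channels as 129SvEx:C57BL/6. Per the study's methods, floxed Sox4fl/fl and Sox11fl/fl alleles were deleted by Krt14-Cre (FVB/N). This Cre is driven by the keratin 14 promoter, and deletion was not measured separately in dermal or immune cells of the preparation. The floxed parents also carried Sox12-/-, and whether the embryos on the arrays carried that allele is not given in the sources used here. In each tissue the RNA came from all cells of the separated epidermis, so fewer cells of a type and less RNA per cell cannot be told apart.

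All 8 keratinocyte markers (among them Krt5, Krt14 and Trp63) were above background. Of 2 Sox4 probes, one was well above background in wild type and in no Sox4-deleted sample, so the size of its change is uncertain. Its fitted log2 change was -1.96 in Sox4 cKO (limma adjusted p = 0.0289) and -1.58 in dcKO (adjusted p = 0.00228). The other, above background in all channels, had a log2 change of -0.42 in Sox4 cKO (adjusted p = 0.804) and of -0.82 in dcKO (adjusted p = 0.0777). Of the 2 Sox11 probes, one was above background in no channel, and the other in at most 1 of the 2 channels of a genotype or of its littermates, so the arrays could not check the Sox11 genotype. The latter probe had a log2 change of 0.05 in Sox11 cKO (limma adjusted p = 0.979) and of -0.72 in dcKO (0.197). Per the study, RT-qPCR had checked the loss of Sox4 and Sox11 in the RNA used for the arrays.

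These genes act at different steps of skin defence. IL-1α and IL-33 are held ready inside epithelial cells and released on damage. IL-1β and IL-18 are made as inactive precursors that caspase-1, in a complex called the inflammasome, cleaves, and the product of Il1rn blocks the IL-1 receptor. TSLP acts on dendritic cells and lymphocytes, the PGLYRP proteins bind the bacterial cell wall, and β-defensins are small cationic peptides that damage bacterial membranes.

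Of the 10 genes, only Il18 passed the test in any knockout, and it passed in dcKO alone, where it was higher. A gene passed at a Benjamini-Hochberg adjusted p under 0.05 in limma, taken over all probes. By that rule 0.828% of all 55681 probes were called in dcKO, and 0.521% were called as higher, against 1 of the 10 genes. Of all 21370 named genes, 208 were called as higher. The 10 genes were chosen with earlier results of these data known, so these shares are no test of the set. In Sox4 cKO 0.00539% of probes were called, and in Sox11 cKO 0%. None of the 10 genes passed in either. For Sox4 cKO 1 of the 10 had an unadjusted limma p under 0.05, against 6.17% of all probes. The count was 0 for Sox11 cKO, against 7.04%. It was 3 for dcKO, Il18 included, against 9.89%.

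Detection differed between the 10 genes. Il18 and Defb1 were well above background in all 12 channels (6 arrays, knockout and wild type). Il1rn was above background in 10 channels, Defb6 in 3 and Il1a in 1. The remaining 5 genes, Pglyrp3, Pglyrp4, Il1b, Il33 and Tslp, were above background in no channel, so that no fold change is given for them.

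Il18 lies on chromosome 9. Its level, the log2 normalized intensity of a channel, was 10.67 and 9.58 in the dcKO epidermis of replicates 1 and 2, against 7.26 and 6.52 in the littermates on the same arrays. The dcKO samples were the highest 2 of all 12 channels, and the nearest other channel, a wild-type littermate of Sox4 cKO, stood at 8.74. In Sox11 cKO the level was 8.54 and 8.22, against 8.36 and 6.23 in littermates. In Sox4 cKO it was 7.95 and 6.26, against 7.96 and 8.74 in littermates. Apart from dcKO, knockout and wild-type levels thus overlapped.

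Wild-type epidermis itself varied in Il18. The 6 wild-type channels had a mean level of 7.51 ± 1.01 (SD, n = 6) and spanned 2.51 on the log2 scale, a range that reached from the lowest of all 12 channels to the third highest. The single knockout levels lay inside that range.

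**Figure D1:**
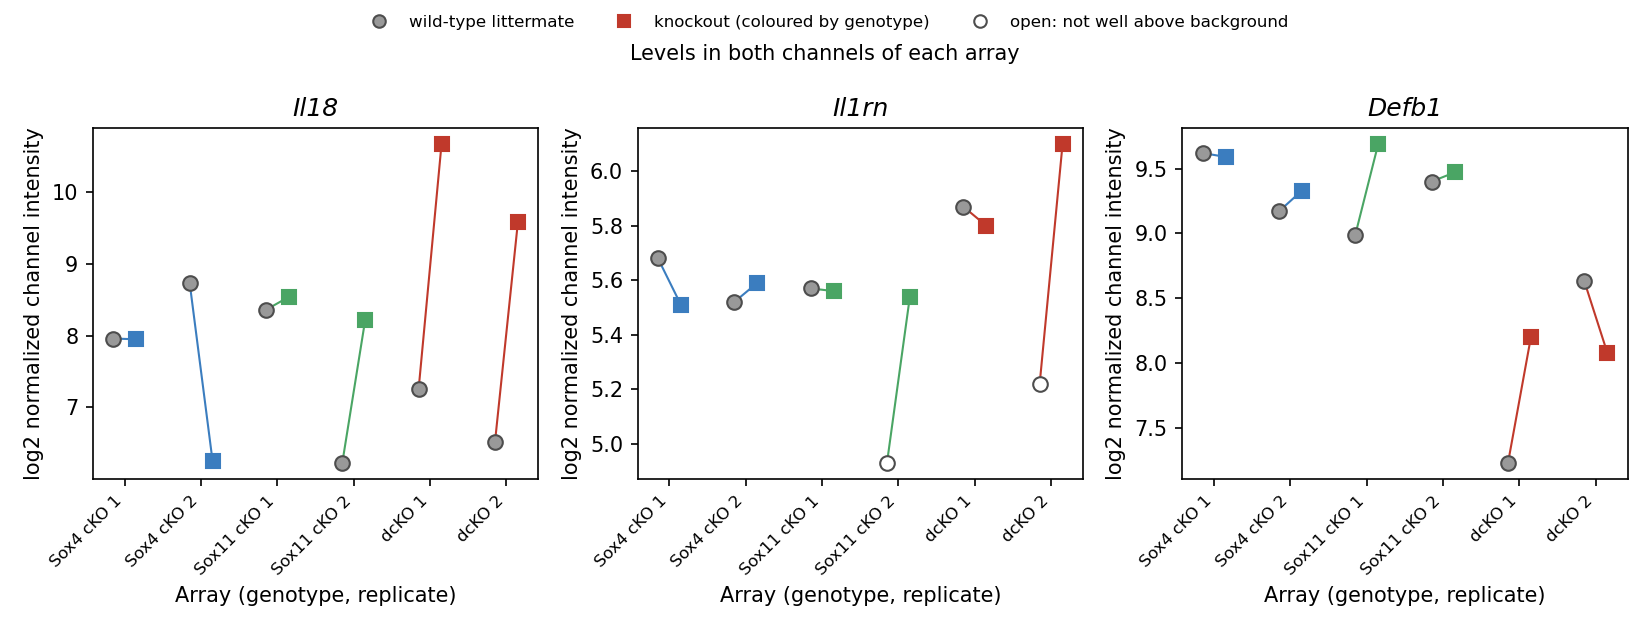
Log2 normalized intensity of Il18, Il1rn and Defb1 (vertical axes, which differ between panels and do not start at 0) in both channels of each array (horizontal axis), with grey circles for wild-type littermates, squares coloured by genotype for knockouts, lines joining the channels of 1 array, and open marks for channels not well above background. The dcKO squares of Il18, at 10.67 and 9.58, lie above all other channels, whereas Il1rn and Defb1 overlap between knockout and wild type.

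Read as log2 ratios of knockout over wild type on the same array, Il18 stood at 3.40 and 3.06 in dcKO, with a mean of 3.23 ± 0.24 (SD, n = 2). Both dcKO arrays were above the other 4. The Sox11 cKO arrays gave 0.18 and 1.98, and the Sox4 cKO arrays gave -0.01 and -2.48. In both single knockouts, then, replicate 1 showed almost no difference and replicate 2 a large one, in opposite directions for the 2 genotypes.

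In the fit over all arrays the dcKO change of Il18 was 9.4-fold (log2 3.23, SE 0.53, 95% interval 2.03 to 4.44, limma adjusted p = 0.033). In Sox11 cKO the fitted log2 change was 1.08 (interval -0.13 to 2.29, adjusted p = 0.729), and in Sox4 cKO it was -1.25 (interval -2.45 to -0.04, adjusted p = 0.807). The residual SD of the Il18 probe was 1.51, larger than that of 99.9% of probes. Moderation in limma brought it to 0.75, towards the value of 0.2 common to all probes.

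The call therefore rested on how the spread was estimated. Without dcKO replicate 1 the log2 change was 3.23 at an adjusted p of 0.102, and without dcKO replicate 2 it was 3.24 at 0.0743 (limma). With robust moderation, which lets unusual probes keep more of their own spread, the adjusted p was 0.445. Against the wild-type channels of all 6 arrays the log2 change was 2.95 at an adjusted p of 0.0199.

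Whether Il18 responded differently in the genotypes was tested as differences between their fitted log2 changes. dcKO exceeded Sox4 cKO by 4.48 (interval 2.77 to 6.18, limma adjusted p = 0.107) and Sox11 cKO by 2.15 (0.45 to 3.86, adjusted p = 0.635). The dcKO change exceeded the sum of both single knockouts by 3.40 (1.31 to 5.49, adjusted p = 0.688), and Sox4 cKO lay below Sox11 cKO by a difference of -2.33 (-4.03 to -0.62, adjusted p = 0.929). No difference passed, so the arrays did not show that the rise of Il18 was particular to dcKO.

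Over the whole array 0.145% of probes differed between dcKO and Sox4 cKO, 0.16% between dcKO and Sox11 cKO, 0.0862% between dcKO and the sum, and 0.0018% between the single knockouts. In these 4 comparisons 0 of the 10 genes passed in limma, with 3, 1, 2 and 1 of them, in the same order, at an unadjusted p under 0.05, as had 6.11%, 7.21%, 6.35% and 5.27% of all probes. The comparison of dcKO with Sox4 cKO was close to the threshold for Il18. It passed without Sox11 cKO replicate 1 or without Sox11 cKO replicate 2 (adjusted p = 0.00914 each), without Sox4 cKO replicate 1 (0.0162) and without dcKO replicate 2 (0.0444). It did not pass without dcKO replicate 1 (0.0626) or without Sox4 cKO replicate 2, where the difference was 2.88 (0.273). With 1 array left out, the difference ranged from 0.55 to 3.76 between dcKO and Sox11 cKO, from 1.79 to 5 between dcKO and the sum, and from -3.93 to -0.72 between Sox4 cKO and Sox11 cKO, and none of these passed.

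**Figure D2:**
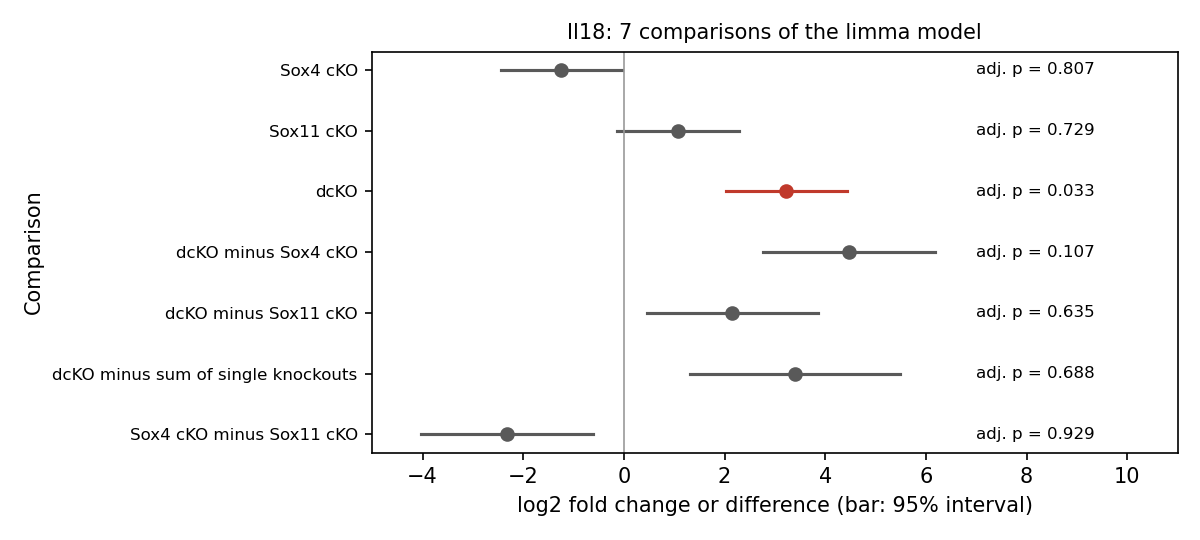
Fitted log2 fold change of Il18 in each knockout, and the differences between them (horizontal axis, log2), for the 7 comparisons of the limma model (vertical axis), where points are estimates, bars 95% intervals, red the comparison that passed, and the adjusted p stands at the right. The dcKO estimate of 3.23 was the one past the threshold, although 5 other intervals also leave out 0 before adjustment.

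SOX proteins share a short DNA word, and the sequence before the annotated start of each gene was read for it in RefSeq promoters (GRCm38.p6, 250 bases before to 50 after the start). Both strands were searched for the 8 words of 7 letters that have CAA in the middle, preceded by a pair of letters that are each A or T, and followed by A or T and a closing G, a choice made after the sequences had been read. Of the 10 genes, 6 had a promoter in the table, with 9 promoters in all. A word was present in 2 of these 9, and in 24.6% of all 32851 promoters of the same length. They are shown because Il18 was the gene that passed and Il1rn the antagonist measured beside it, with the matched word in capitals.
Il18, chr9:50554686-50554715, plus strand: ttgcatccgaaTACAAAGcagtggttttca
Il1rn, chr2:24336618-24336647, plus strand: gtttggggtgaTACAAAGgtcccacctcat
The Il18 word began 3 bases before the annotated start, and the Il1rn word 231 bases before the most upstream of 3 annotated starts. The promoters of Il1f8, Il1f9, Il1f5 and Il1r2, other genes called in dcKO and described below, held none of the words. Nlrp10 and Gsdmc, also called, had no promoter to search. A match describes the letters only and is not a binding site.

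Il1rn, the IL-1 receptor antagonist, did not pass in any genotype. Its level was 5.80 and 6.10 in dcKO, against 5.87 and 5.22 in littermates, and the wild-type channel at 5.22 was not well above background. The Sox11 cKO levels were 5.56 and 5.54, against 5.57 and 4.93 in littermates, of which the last was not above background either. The Sox4 cKO levels were 5.51 and 5.59, against 5.68 and 5.52. The larger ratios, 0.87 on dcKO replicate 2 and 0.60 on Sox11 cKO replicate 2, were those of the arrays whose wild-type channel was not above background, and the other 4 arrays lay between -0.16 and 0.07. The fitted log2 change was 0.40 in dcKO (interval 0.06 to 0.75, limma adjusted p = 0.426), 0.30 in Sox11 cKO and -0.05 in Sox4 cKO.

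Defb1, the constitutive β-defensin of many epithelia, was well measured but did not separate the genotypes from their littermates. On dcKO replicate 1 the knockout stood at 8.20 and the wild type at 7.23, whereas on dcKO replicate 2 the knockout stood at 8.08 and the wild type at 8.63. The log2 ratios of these arrays, 0.97 and -0.55, thus had opposite signs. The ratios were 0.70 and 0.07 in Sox11 cKO and -0.04 and 0.16 in Sox4 cKO. The fitted log2 change in dcKO was 0.21 (interval -0.34 to 0.76, limma adjusted p = 0.842).

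The Defb1 level also differed between arrays. All 4 channels of the dcKO arrays, wild-type littermates included, were the lowest 4 of the 12, at 7.23 to 8.63, and the other 8 channels lay between 8.99 and 9.69. The probe's residual SD of 0.61 was larger than that of 99.1% of probes.

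Defb6, a β-defensin related to Defb1, was above background in 3 channels, all on the Sox4 cKO arrays. These were both Sox4 cKO samples and the wild type of replicate 2, at 5.84, while the other 5 wild-type channels were between 4.91 and 5.15. On these Sox4 cKO arrays the log2 ratio was 0.52 and -0.34, and it was -0.01 and -0.05 for Sox11 cKO and 0.15 and 0.02 for dcKO.

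Il1a was above background in 1 channel, the dcKO sample of replicate 1, at a level of 5.67 against 4.89 in its littermate. On dcKO replicate 2 both channels were at background, at 4.65 and 4.41. The comparison did not pass (limma adjusted p = 0.188), and no fold is given, because a Sox4 cKO channel at 5.2, above the dcKO mean of 5.16, was itself not well above background. The log2 ratio was 0.36 and -0.27 on the Sox4 cKO arrays, and 0.24 and -0.05 on those of Sox11 cKO.

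Among the 5 genes without measurable signal, the ratios of single arrays are given as read, without a direction. The 30 log2 ratios of these genes lay between -0.44 and 0.61. Pglyrp3 read -0.14 and -0.41 in Sox4 cKO, -0.06 and -0.43 in Sox11 cKO, and 0.11 and 0.32 in dcKO. Pglyrp4 read 0.02 and -0.44, 0.20 and 0.04, and 0.26 and -0.09 in the same order.

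The alarmin Il33 read 0.61 and -0.30 in Sox4 cKO, 0.35 and 0.41 in Sox11 cKO, and 0.58 and -0.23 in dcKO. For Tslp the values were -0.06 and 0.54, 0.05 and 0.19, and 0.05 and -0.11, and for Il1b they were 0.16 and 0.10, 0.14 and 0.02, and -0.07 and -0.14. The lowest adjusted p of any of the 5 in a knockout was 0.688 (limma). Such levels bound what the arrays could see and do not show that these transcripts were absent.

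**Figure D3:**
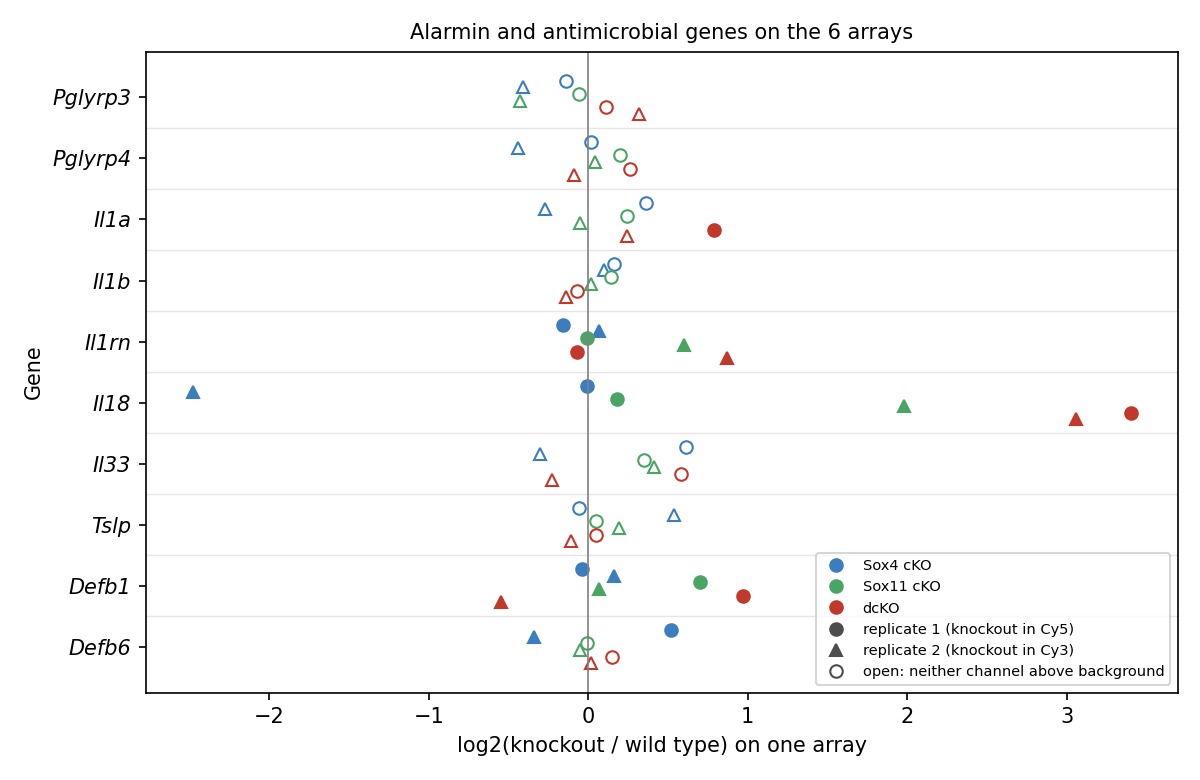
Log2 ratio of knockout over wild type (horizontal axis) of the 10 genes (vertical axis) on each of the 6 arrays, with colour for the genotype, circles for replicate 1, triangles for replicate 2, and open marks where neither channel was above background. Il18 spans -2.48 to 3.40, and the other 9 genes stay between -0.55 and 0.97.

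The genes around the interleukin-1 family were then read from 7 lists of 111 genes on the array. In dcKO 6 of the 111 passed, all higher, beside 208 higher and 129 lower of all 21370 named genes. With the study's added limit of an absolute log2 change over 1.5, 2 of the 6 were left, Il1f8 and Nlrp10. Among these lists 0 genes passed in Sox4 cKO, where 10 had an unadjusted p under 0.05, and 0 in Sox11 cKO, where 12 had one, against 25 in dcKO (limma). Over all probes the share with such a p was 6.17%, 7.04% and 9.89% in the same order. None passed in the 4 comparisons between genotypes either, where 7 to 16 had an unadjusted p under 0.05, against 5.27% to 7.21% of all probes.

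Close relatives of the 10 genes were among those that rose in dcKO. Of 5 other interleukin-1 family ligands 3 passed, and the list's median log2 change was 1.06, against -0.01 over all named genes. This list too was chosen with earlier results of these data known, so its count and median are no test of the set. Il1f8, which encodes the agonist IL-36β, rose 3.14-fold (log2 1.65, SE 0.21, adjusted p = 0.00995), with 1.39 and 1.91 on its arrays. Il1f9, which encodes IL-36γ, rose 2.71-fold (log2 1.44, SE 0.20, adjusted p = 0.0136), with 1.21 and 1.66. Il1f5, which encodes the IL-36 receptor antagonist, rose 2.08-fold (log2 1.06, SE 0.16, adjusted p = 0.0249), with 0.90 and 1.22. Agonists and their antagonist thus stood higher on the same arrays.

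Both remaining ligands had no call in dcKO. Il1f6, which encodes IL-36α, had a log2 change of 0.76 (adjusted p = 0.499), and Il1f10, which encodes IL-38, had one of -0.22 (adjusted p = 0.637). The 3 calls depended on the treatment of the dyes, on single arrays and on the size limit. Without the dye term the adjusted p was 0.0607 for Il1f8, 0.194 for Il1f9 and 0.103 for Il1f5, and without dcKO replicate 1 it was 0.0975, 0.238 and 0.318. Il1f9 and Il1f5 lie under the absolute log2 change of 1.5 that the study's methods also ask for.

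In Sox11 cKO all 5 of these ligands had positive fitted changes, with a median of 1.02, but none passed (adjusted p from 0.479). Il1f6 read 0.90 and 3.18 on the Sox11 cKO arrays, Il1f9 read 0.37 and 2.06, and Il1f8 read 0.22 and 1.81. As for Il18, replicate 2 was the higher of the Sox11 cKO arrays. In Sox4 cKO the list's median was 0.14. The difference between dcKO and Sox11 cKO was 0.63 for Il1f8 (SE 0.30, adjusted p = 0.711) and 0.22 for Il1f9 (SE 0.28, adjusted p = 0.91), while it was -1.28 for Il1f6 (SE 0.47, adjusted p = 0.639) and -0.99 for Il1f10 (SE 0.18, adjusted p = 0.137). The last 2 were the larger differences and the ones with an unadjusted p under 0.05.

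Of 12 receptors and decoys 1 passed in dcKO. This was Il1r2, the decoy receptor that takes up IL-1 without signalling, which rose 2.46-fold (log2 1.30, SE 0.23, limma adjusted p = 0.0426), with 1.78 and 0.82 on its arrays. Without dcKO replicate 1 its log2 change was 0.79 (adjusted p = 0.555), and it did not pass without Sox4 cKO replicate 1 or without replicate 2 (0.0566 each). The signalling receptor Il1r1 had a log2 change of 0.22 (adjusted p = 0.639), and the inhibitory receptor Sigirr one of -0.21 (adjusted p = 0.667). Il18bp, the soluble inhibitor of IL-18, was above background in all 12 channels with a log2 change of 0.10 (adjusted p = 0.868), whereas the IL-18 receptor genes Il18r1 and Il18rap were above background in none.

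Of 15 inflammasome and processing genes 2 passed in dcKO, both higher. Nlrp10, a NOD-like receptor of keratinocytes, had a log2 change of 1.62 (SE 0.19, adjusted p = 0.00722) with 1.41 and 1.84 on its arrays. Gsdmc, a gasdermin, had one of 1.5 (SE 0.17, adjusted p = 0.00594), with 1.06 and 1.93, although near-identical paralogs make its identity uncertain. Casp1, the protease that cleaves pro-IL-18, stood at 0.41 and 0.74 and did not pass (log2 0.57, adjusted p = 0.114). Without dcKO replicate 1 the adjusted p was 0.0813 for Nlrp10, and without dcKO replicate 2 it was 0.0678 for Gsdmc and 0.0995 for Il1f5.

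**Figure D4:**
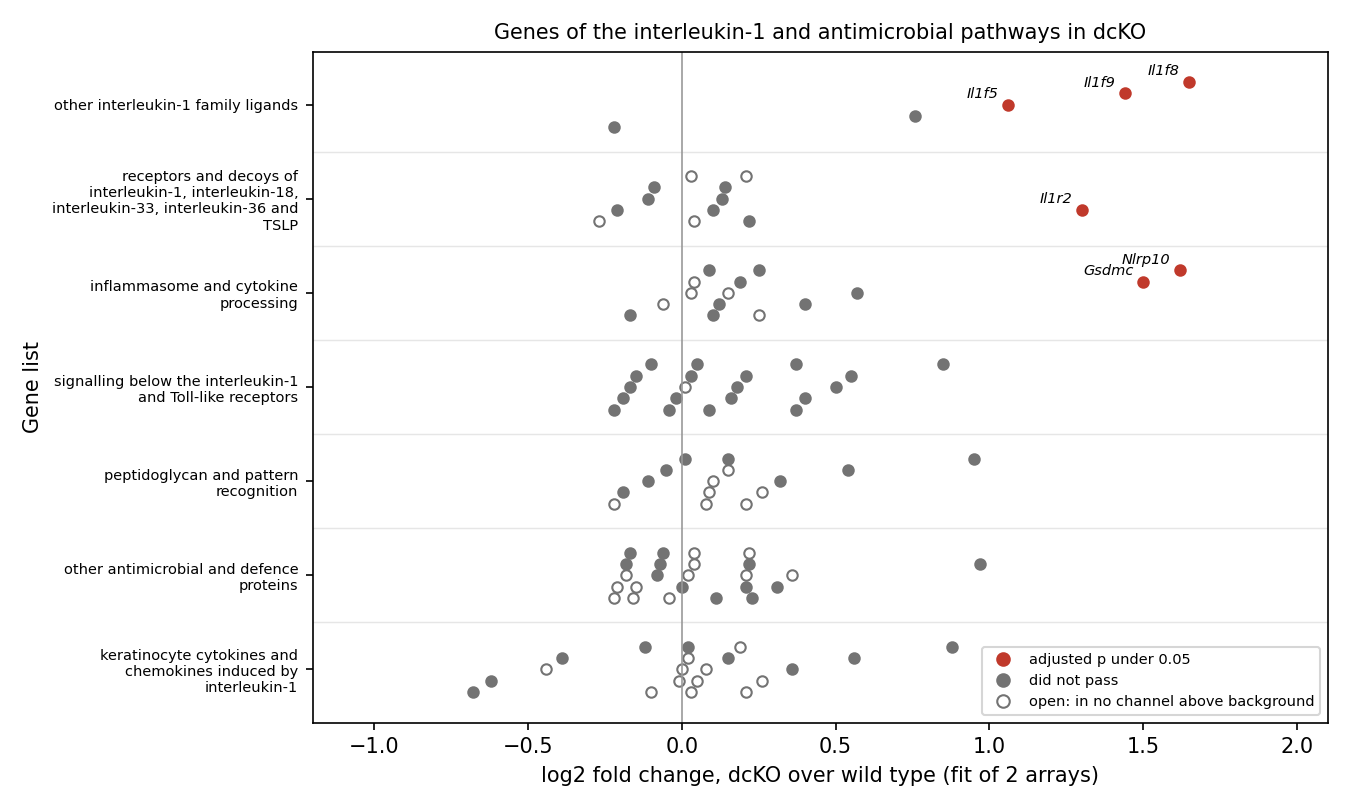
Fitted log2 fold change in dcKO (horizontal axis) of each gene of the 7 lists (vertical axis; heights within a list only separate the points), with red for genes that passed, grey for those that did not, and open marks for genes above background in no channel. The 6 named genes lie between 1.06 and 1.65 and belong to the upper 3 lists, and the other 4 lists hold none.

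The other 4 lists held no call in any comparison as fitted here in limma, although some of their genes passed in dcKO under other settings. Of 20 signalling genes 6 had an unadjusted p under 0.05 in dcKO, and the median was 0.07. The 3 with the smallest p were Tnfaip3, which ends NF-κB signalling, the adaptor Traf6 and the NF-κB subunit Relb. Tnfaip3 had a log2 change of 0.85 (adjusted p = 0.145), which ranged from 0.33 to 1.37 with 1 array left out. Traf6 had one of 0.50 (adjusted p = 0.218) and Relb one of 0.55 (adjusted p = 0.233). Of 15 pattern recognition genes 3 had an unadjusted p under 0.05. Their log2 changes were 0.95 for the peptidoglycan sensor Nod2 (adjusted p = 0.13), 0.54 for Tlr2 and 0.32 for its partner Cd14. With 1 array left out, the Nod2 change ranged from 0.33 to 1.56.

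Of 24 other antimicrobial genes 2 had an unadjusted p under 0.05 in dcKO, and the list's median was 0.01. Rnase4, a secreted ribonuclease, read 1.75 and 0.19 (limma adjusted p = 0.147), and its fitted change ranged from 0.28 to 1.66 with 1 array left out. Reg3g, at background, had a fitted log2 change of 0.36 and Wfdc2 one of 0.31. Of 20 cytokines and chemokines 5 had an unadjusted p under 0.05, with a median of 0.02. Tnf had a log2 change of 0.88 (adjusted p = 0.0836, and 0.0345 without Sox4 cKO replicate 1 or 2), the skin chemokine gene Ccl27a one of -0.68 (adjusted p = 0.0631) and the growth factor gene Areg one of -0.62 (adjusted p = 0.16).

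Pglyrp3 and Pglyrp4 lie on chromosome 3 in the epidermal differentiation complex, between genes of the S100 family and of the cornified envelope. Of the 10 neighbours of Pglyrp3 with a probe, 1 rose and 1 fell in dcKO, beside 208 higher and 129 lower of all 21370 named genes. The 10 of Pglyrp4 are largely the same genes, and the calls among them were the same. Lelp1 rose by a log2 change of 2.19 (limma adjusted p = 0.000151) and Prr9 fell by 1.52 (adjusted p = 0.0051). Lor, which encodes the envelope protein loricrin, had a log2 change of 0.42 and S100a9 one of -0.17, and neither passed. S100a6, a neighbour of Pglyrp4, had one of -0.88 and did not pass either (limma adjusted p = 0.208).

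The genes whose log2 ratios followed Il18 most closely across the 6 arrays, with the dye difference removed, were Echdc1 (Pearson r = 0.999), Orai1 (0.999) and Cul5 (0.998), out of 11164 genes compared. Their changes in dcKO were far smaller, at log2 0.20, 0.28 and 0.28, and none passed. These genes were picked as the most alike of all those compared, and the correlations describe these 6 arrays only.

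Markers of other cells also differed, on the dcKO arrays and on arrays of the single knockouts. The summed intensity of 6 periderm keratins, the transient outer layer of embryonic skin, was 3651 to 3794 in dcKO and 8024 to 8687 in littermates, and 3 of the 6 passed as lower. All 6 were above background. In Sox11 cKO the periderm sums were also lower, at 8089 to 10727 against 14382 to 15020 in littermates. The median log2 change of these keratins was -1.15 in Sox11 cKO, where none passed, -1.17 in dcKO and 0.48 in Sox4 cKO. In Sox4 cKO 5 of the 6 were positive and Krt17 was at -0.93, and none passed. The Sox4 cKO sums were 7386 to 8348, against 7774 to 9370 in littermates. The 6 mast cell markers summed to 434 to 684 in dcKO and 796 to 1501 in littermates, and none passed. Each was above background in some channel, though Mcpt4 in only 2 and Cma1 in 7 of the 12. Of 10 macrophage and Langerhans cell markers 6 were above background, with sums of 2900 to 4785 in dcKO and 2917 to 4591 in littermates, while Ptprc, Adgre1, Cd207 and Lyz2 were above background in no channel. The 8 dermal fibroblast markers were each above background in some channel, but Dpt in only 1 and Pdgfra in only 5 of the 12. Their median log2 change in dcKO was -1.73 and none passed, with sums of 7756 to 9308 against 8608 to 12594. Dcn alone went the other way, at 0.35. On the Sox4 cKO arrays the log2 ratio of the mast cell sums was -1.97 and 0.45. For the fibroblast sums it was -1.08 and 0.58 on the same arrays. None of the markers of keratinocytes, neutrophils, endothelium, skeletal muscle, melanocytes or red cells passed in dcKO, and their median log2 changes were between -0.36 and 0.36. The keratinocyte median of 0.08 pooled changes in both directions, of which 6 of 8 were positive. Krt1, a differentiation marker, had a log2 change of 0.64 (limma adjusted p = 0.489) and Krt10 one of 0.63 (0.468), whereas Krt15 had -0.34 (0.431). On the Sox11 cKO arrays Krt1 read 0.09 and 1.60. The study reports premature epidermal differentiation in dcKO embryos. The part of the periderm, mast cell, fibroblast and keratinocyte differentiation differences in the changes of Il18 and its relatives was not tested.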

How the data were processed

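Groups, replicate numbers and dyes came from the sample labels, which call the arrays biological replicates, and each wild type was the littermate of its knockout. The authors scanned the arrays with Agilent Feature Extraction 11.0.1.1, per the submitters' notes. The deposited scanner files hold median spot intensity and local background, not normalized, and a log10 ratio made by the scanner software. The deposited series table holds the authors' log2 ratio of knockout over wild type, made with limma 3.5 and normexp (offset 16) and loess. It differed from the values recomputed here by at most 0.06 for the 10 genes, and the recomputed values are printed.

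Intensities were corrected with normexp (offset 16), fitted on all spots, and normalized by loess within each array in limma 3.58.1 (R 4.3.3). Control spots were removed, as were the 183 to 233 spots per array with an outlier mark, and spots of 1 probe were averaged, which left 55681 probes. No spot was saturated, and a channel had 38.9% to 43.6% of its spots well above background. Levels are log2 channel intensities after further Aquantile scaling between arrays. The model held 1 coefficient per genotype and 1 for the dye, which was also the replicate block, because the knockout of replicate 1 was always in Cy5. Same-numbered arrays deviated together (r = 0.26, 0.31 and 0.33). Tests were two-sided, and all adjusted p are Benjamini-Hochberg values of limma over all probes. The fit was tested on simulated data. All arrays lay on 1 slide, so no slide effect could be fitted, and with 2 arrays per genotype the number of arrays limits the precision.

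Probes were named through the accession of the array design (mm9) in the RefSeq table, and for genes with several probes the brightest was used. The 10 genes, the 7 lists and the cell type markers were chosen with earlier results of these data known. Named genes were all 10, every list gene that passed and the 3 of each list with the smallest p in dcKO. The 3 genes most like Il18 were also named. Of the 5 genes on either side of Pglyrp3 and Pglyrp4, those that passed were named, with Lor and S100a9. Il1f6, Il1f10, Il18bp, Il18r1, Il18rap, S100a6, Krt1, Krt10 and Krt15 were named beside these after their values were seen. Of the list and marker genes, Clec7a, Pi3 and Ly6g had no probe here. Alternatives changed the offset, background correction, source of the ratio, scaling, dye term, probe filter, probe choice and call rule, and left out each array. A robust or trended moderation and a separate-channel model were added after the data were seen.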

Additional observations from a re-analysis of the deposited data

Results flagged for a closer look

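The wild-type level of Defb6 on Sox4 cKO replicate 2, at 5.84, stood apart from the other 5 wild-type channels, which lay between 4.91 and 5.15. It was the one wild-type channel in which Defb6 was above background. Its gap to the nearest of the others was 0.74 of the range and the largest of the 10 genes screened, and chance alone passes the threshold used in about 1 in 20 groups.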

How the results depend on the processing

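Il18 kept a positive log2 change in dcKO, of 2.91 to 3.43, under all 19 alternatives, and passed under 13 of them. The count of the 10 genes that passed in dcKO, 1 as reported, became 2 (Il18 and Il1a) without background subtraction, and 0 with the scanner's log ratio (Il18 adjusted p = 0.554), with the replicate block removed beforehand (0.0801), with a filter on dim probes (0.0647) and with robust moderation (0.445). Leaving out 1 array gave counts of 0 to 1, the 0 being without dcKO replicate 1 or dcKO replicate 2. Between dcKO and Sox4 cKO the count, 0 as reported, became 1 (Il18) with an offset of 50, without background subtraction and with trended moderation, and ranged from 0 to 1 with 1 array left out. The other 5 counts stayed at 0 under these alternatives.

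Without the replicate block Il18 still passed in dcKO (adjusted p = 0.0262) and no count of the 10 genes moved, but Il1f8, Il1f9, Il1f5 and Il1r2 did not pass. The probes called in dcKO, 461 as reported, numbered 1376 with an offset of 50, 1105 without background subtraction, 270 without the replicate block, 815 with it removed beforehand, 1162 with trended moderation, 812 with separate channels, 165 and 262 without dcKO replicate 1 or 2, 115 with the added size limit, and 0 with the scanner's log ratio, where 5750 had an unadjusted p under 0.05 (limma).

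Of the 21 list genes named by rule, 6 passed in dcKO as reported. The number was 16 with an offset of 50, 15 without background subtraction, 13 with trended moderation, 2 without the replicate block or with the added size limit, 0 with the scanner's log ratio, 1 to 7 with 1 array left out, and 5 to 8 otherwise. Casp1 and Ccl27a, not called as reported, passed under 6 of 19 alternatives each, Tnf under 5, Tnfaip3, Nod2, Tlr2 and Rnase4 under 4 each, Areg under 3, Traf6 under 2 and Relb under 1.

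The sign turned for values that had not passed. With 1 array left out, the Sox4 cKO change ranged from -2.85 to 0.35 for Il18, from -0.58 to 0.69 for Defb1, from -0.32 to 0.22 for Il1rn and from -0.30 to 0.48 for Defb6, the Sox11 cKO change of Il18 from -0.53 to 2.69, and the dcKO change of Defb1 from -0.44 to 0.86. The turns came without Sox4 cKO replicate 2 (for Defb6, replicate 1), Sox11 cKO replicate 2 and dcKO replicate 1. With separate channels the dcKO change of Defb1 was -0.20 and the Sox4 cKO change of Il1rn was 0.01. The cause of these moves was not tested. Signal over background limits what can be said of the 5 genes above background in no channel.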
